A study of Mus musculus with 15 samples.

Results

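Keratins are the intermediate filament proteins of epithelial cells, and p63 and p73, encoded by Trp63 and Trp73, are relatives of the tumor suppressor p53. Their RNA was followed here in 2 mouse lines of neuroendocrine lung carcinoma, in the allografts grown from them and in normal lung. The 10 genes are Krt5, Krt7, Krt8, Krt10, Krt14, Krt15, Krt18, Krt19, Trp63 and Trp73, chosen by name from the 55359 genes of the matrix, and each was found in a single row. Each of the 5 groups has 3 samples: 46LCNEC_cell (dishes A, B and C), 46LCNEC_allo (tumors 312, 319 and 321), 57SCLC_cell (flasks A, B and C), 57SCLC_allo (tumors 275, 316 and 317) and Lung (CT3, CT4 and CT5).

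Both lines came from QKO mice, whose engineered alleles include floxed Rb1 and Trp53 and a null Rbl1. 46LCNEC is an adherent line from 1 large cell neuroendocrine carcinoma, raised by intratracheal adenovirus with Cre under the CMV promoter. 57SCLC grows as floating aggregates and came from 1 small cell lung carcinoma, raised by adenovirus with Cre under the promoter of keratin K5, the product of Krt5 and a protein of basal airway cells. Each line is therefore a single tumor with its own Cre driver. The lines were also taken at different passages, and their culture labels carry different date-like numbers. Tumor, driver, growth form, passage and whatever these numbers stand for cannot be told apart. The allografts grew under the skin of immunocompetent QKO mice after injection of cells in Matrigel, and Lung is normal lung of littermates of those mice, of the same QKO background and with no tumor cells. Ages and sexes of these mice were not given in the sources used here. The dishes and flasks are cultures of the same line, so p-values between cells measure the spread between cultures and not between tumors. The allografts of a group are likewise grafts of 1 line. Their p-values measure the spread between grafts and not between independent primary tumors.

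Keratins form filaments as pairs of an acidic type I and a basic type II chain. Krt8 (type II) and Krt18 (type I) make up the pair of simple epithelia, which Krt7 (type II) and Krt19 (type I) join in many ducts and in the airway, whereas Krt5 (type II) with Krt14 and Krt15 (type I) mark basal cells of stratified and airway epithelium, and Krt10 (type I) marks the suprabasal epidermis. p63 is the transcription factor that basal epithelial cells depend on, and p73 is known for its part in multiciliated cells. Gene counts sum all transcripts of a gene, so they do not separate the full-length from the N-terminally truncated forms of p63 or p73.

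The results turn on Krt7, Krt8 and Krt18, which were high and low in the same groups, so their promoter windows are shown. Each covers 250 bases before to 50 bases after a transcript start in RefSeq, in build GRCm38.p6, written 5′ to 3′ on the strand of the gene. Capitals mark matches to the TATA box letters TATAAA or to the GC box letters GGGCGG on either strand. The window of Krt7 is chr15:101412153-101412452 on the plus strand, that of Krt8 is chr15:102004293-102004592 on the minus strand and that of Krt18 is chr15:102027966-102028265 on the plus strand.
Krt7: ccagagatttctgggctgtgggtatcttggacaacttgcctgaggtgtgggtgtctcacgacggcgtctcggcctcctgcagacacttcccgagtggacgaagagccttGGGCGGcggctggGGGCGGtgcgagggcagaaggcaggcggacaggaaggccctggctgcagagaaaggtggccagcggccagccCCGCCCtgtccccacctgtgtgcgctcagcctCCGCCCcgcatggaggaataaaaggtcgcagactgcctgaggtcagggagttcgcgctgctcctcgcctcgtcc
Krt8: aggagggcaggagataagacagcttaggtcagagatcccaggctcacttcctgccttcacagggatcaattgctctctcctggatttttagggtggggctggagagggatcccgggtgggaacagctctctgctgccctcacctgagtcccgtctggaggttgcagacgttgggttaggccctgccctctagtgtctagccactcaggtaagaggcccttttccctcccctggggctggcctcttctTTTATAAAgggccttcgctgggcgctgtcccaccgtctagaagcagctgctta
Krt18: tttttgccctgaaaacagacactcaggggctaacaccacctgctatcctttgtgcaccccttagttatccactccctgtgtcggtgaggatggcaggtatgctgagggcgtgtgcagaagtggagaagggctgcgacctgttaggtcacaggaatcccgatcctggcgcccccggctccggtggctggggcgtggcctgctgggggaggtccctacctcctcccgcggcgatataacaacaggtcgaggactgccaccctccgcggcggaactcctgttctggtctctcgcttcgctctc
Krt7 held 4 GC box matches, and GGGCGG was found in 35.7% of all 32851 windows of this length. Krt8 held TATAAA on both strands in overlapping letters, a motif present in 13.6% of all windows, and Krt18 held neither motif. The AP-1 letters TGANTCA, found in 7.81% of windows, were in none of the 3. The windows were 66.3%, 58.0% and 61.3% GC in that order, against a median of 52.7%. Windows were given for 7 of the 10 genes, and Krt15, Krt19 and Trp63 had no entry. In GRCm39 Krt8 (chromosome 15, 101905133 to 101912917) and Krt18 (101936615 to 101940462) are neighbors on opposite strands with 23.7 kb between them, and Krt5 (101615505 to 101621346) and Krt7 (101308924 to 101328194) lie in the same cluster. The type I genes Krt10 (chromosome 11, 99276072 to 99280195), Krt15 (100022584 to 100026775), Krt19 (100031636 to 100039491) and Krt14 (100093988 to 100098490) share the other cluster. Trp63 is on chromosome 16 (25502513 to 25710852) and Trp73 on chromosome 4 (154140706 to 154224665).

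Between 9480244 (tumor 275) and 44876572 (flask C) reads were counted per sample. Values are normalized counts, that is, reads divided by the size factor of the sample, and a gene with at most 3 reads in a library was taken as not detected there. A fold against a group with no detection is a lower bound, computed against the mean of the group's floors of 3 reads per library, and covers counting error only. Of the genes engineered in the mice, counts over whole genes do not measure recombination. Rb1 had 66.6 to 99.9 normalized counts in 46LCNEC_cell, below the 247 to 329 of Lung. It had 183 to 290 in 46LCNEC_allo, 229 to 777 in 57SCLC_cell and 244 to 469 in 57SCLC_allo. The cause of the lower Rb1 in 46LCNEC_cell was not tested. Trp53 ranged from 923 to 1548 over the cells and allografts and from 1250.2 to 1536 in Lung. Rbl1, a null allele in all QKO mice and so in Lung too, ranged from 1172 to 3166 and from 750.4 to 872. The labels were compared with defining markers. Lung held alveolar type 2 markers (summed 235082 to 313991 normalized counts over 6 genes) that did not exceed a sum of 72.3 in any cell or allograft sample. The 4 general epithelial genes Cdh1, Epcam, Cldn7 and Cldn4, which encode adhesion and junction proteins, summed to 35069 to 39999 in 57SCLC_cell and 35107 to 39415 in 57SCLC_allo. They reached only 189 to 210 in 46LCNEC_cell and 105 to 184 in 46LCNEC_allo, below the 12698 to 15989 of Lung. The 5 neuroendocrine markers summed to 28647 to 31526 in 46LCNEC_cell, 3083 to 7393 in 46LCNEC_allo and 44494 to 90769 over the 57SCLC samples, against 174 to 206 in Lung. In 46LCNEC nearly all of this sum was Ncam1, a neural adhesion molecule, with 28614 to 31510 in the dishes. Of the 5 markers against Lung, Ncam1 was the only one higher in 46LCNEC_cell and 3 were lower (Insm1, Calca and Syp), and in 46LCNEC_allo Ncam1 was higher and Insm1 and Syp were lower. By RNA, 1 of these 5 markers was thus higher in 46LCNEC than in Lung, whereas all 5 were higher in both 57SCLC groups. The authors based the label on histology and on protein, which these counts do not measure, and also on RNA of these samples. In that RNA they reported that a classifier of human LCNEC and SCLC separated the models. They also reported enrichment of a gene signature of the parental LCNEC tumors in the 46LCNEC allografts and cells. Neither was computed here. For protein, the authors reported staining for NCAM and CGRP in the cell lines and for chromogranin A in the LCNEC allografts.

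**Figure D1:**
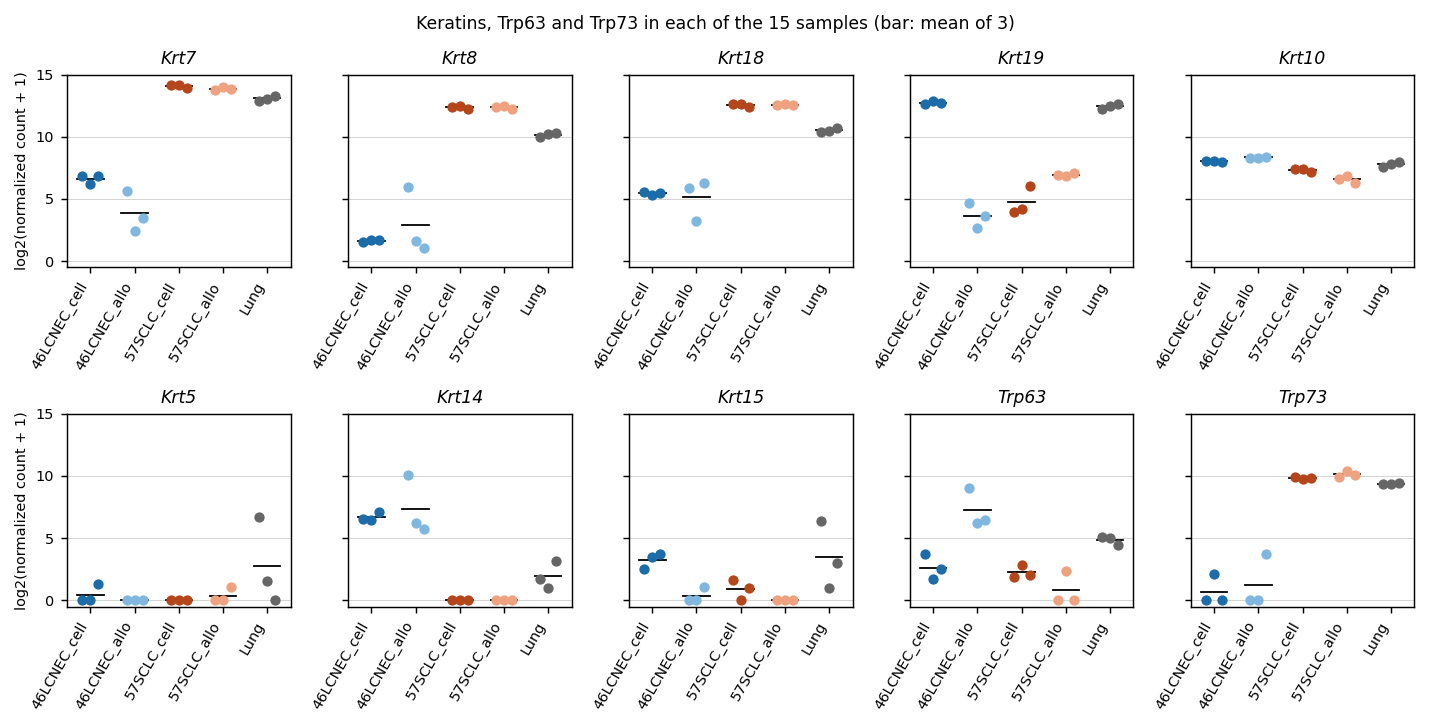
Each panel plots 1 gene, with log2(normalized count + 1) on the vertical axis, a point for each of the 15 samples and a bar for the mean of 3 samples on this scale. Krt7, Krt8, Krt18 and Trp73 were high in both 57SCLC groups and in Lung and low in both 46LCNEC groups, and Krt19 was high in 46LCNEC_cell and Lung only.

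The pair of simple epithelia, Krt8 and Krt18, was abundant in 57SCLC and nearly absent from 46LCNEC. Krt8 had 5472, 5661 and 4674 normalized counts in 57SCLC_cell (flasks A, B and C) and 5355, 5750.2 and 4781 in 57SCLC_allo. In 46LCNEC_cell it had 1.88, 2.21 and 2.31, at most 3 reads in each dish, and in 46LCNEC_allo it had 60.9 in tumor 312, 2.11 in tumor 319 and 1.11 in tumor 321. Both 57SCLC groups lay above every other sample, and the only 46LCNEC sample with Krt8 above the floor was tumor 312. Lung was between the lines with 1008, 1197 and 1234. Krt18 followed the same order, with 6229.6, 6504 and 5375 normalized counts in 57SCLC_cell and 6042, 6309 and 5907 in 57SCLC_allo. It had 45.0, 39.7 and 42.3 in 46LCNEC_cell and 57.0, 8.42 and 75.2 in 46LCNEC_allo, where it was low but detected in every sample. Lung had 1348, 1429 and 1696. For both genes, the order of group means was 57SCLC_allo, 57SCLC_cell, Lung, 46LCNEC_allo and 46LCNEC_cell, in which the 2 groups of each line overlapped and Lung overlapped with neither line.

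Krt7, a type II keratin of ducts and glands, had the highest counts of the 10 genes. It had 18028, 18557 and 15840.0 normalized counts in 57SCLC_cell, 14054, 16275 and 14568 in 57SCLC_allo and 7531, 8474 and 10054 in Lung. In 46LCNEC_cell it had 114, 70.6 and 115, and in 46LCNEC_allo 49.0, 4.21 and 9.96, so both 46LCNEC groups were below every other sample and did not overlap with each other. Per kb of exon the order among these genes changed: in 57SCLC_cell Krt18 stood at 4201 ± 410 normalized counts per kb (SD, n = 3), Krt8 at 2691 ± 268 and Krt7 at 2479 ± 204. The annotated exons of Krt7 cover 7.05 kb and those of its canonical transcript 4.09 kb, so its level per length depends on which is used.

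Krt19, the type I keratin that lacks most of the tail domain, went against this pattern. It had 6425, 7443 and 6839 normalized counts in 46LCNEC_cell and 4673, 5733 and 6307 in Lung, but 23.8, 5.26 and 11.1 in 46LCNEC_allo. The flasks of 57SCLC_cell held 14.7 (A), 17.5 (B) and 65.1 (C), and the tumors of 57SCLC_allo 122, 112 and 137. Krt19 thus stood at 6425 or more normalized counts in the cells of 46LCNEC and at or below 23.8 in its 3 allografts. An annotated gene on the other strand, Gm73150, covers 17.7% of the exon length of Krt19 and is not a row of the matrix, and with the strand setting not given its reads cannot be told apart from those of Krt19.

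The basal keratins were low. Krt14 had 91.9, 87.2 and 135 normalized counts in 46LCNEC_cell and 1075, 72.6 and 50.9 in 46LCNEC_allo, with the highest value in tumor 312. It was at 0 in all 6 samples of 57SCLC, and in Lung it had 2.24, 0.997 and 8.19. Krt5, its partner in basal cells, was not detected in any of the 12 cell and allograft samples, including 57SCLC, whose Cre driver used the keratin K5 promoter. In Lung Krt5 had 101 in CT3, 1.99 in CT4 and 0 in CT5. Krt15, another keratin of basal cells, had 80.7 in CT3, 0.997 in CT4 and 7.02 in CT5. It had 4.69, 9.93 and 12.3 in 46LCNEC_cell, was not detected in 46LCNEC_allo or 57SCLC_allo, and reached at most 2.18 in 57SCLC_cell. The lung CT3 therefore held most of the Krt5 and Krt15 of its group. In the same lungs Awat1, an enzyme of sebaceous lipid synthesis, had 26.9, 0.997 and 4.68, and Adipoq, the adipocyte hormone adiponectin, had 330, 123 and 10.5. Of the 8 markers of hair follicle and sebaceous gland, 2 had more than 3 reads in a lung. They summed to 32.8 to 71.0 in Lung, with Krt27 and Tchh listed at 0. All 7 airway basal markers, which include Krt5 and Krt15, had more than 3 reads in a lung and summed to 110 to 327. Among them Krt17 had 8.97 in CT3, 0.997 in CT4 and 0 in CT5. The part of skin, fat or airway basal cells in the Krt5 and Krt15 of CT3 was not tested.

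Krt10 was the most even keratin. It had 265, 262 and 246 normalized counts in 46LCNEC_cell, 315, 320.0 and 326 in 46LCNEC_allo, 171, 165 and 144 in 57SCLC_cell, 98.1, 112 and 74.9 in 57SCLC_allo and 189.9, 227 and 246 in Lung. Its groups overlapped with no neighbor in the order of means, and the highest group mean was 3.38 times the lowest. Krt1, the partner of Krt10 in the epidermis, was at 0 in all 3 46LCNEC_allo tumors and had at most 12.97 in Lung.

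Trp63 was highest in 46LCNEC_allo, with 523 normalized counts in tumor 312, 73.7 in tumor 319 and 87.4 in tumor 321. It had 12.2, 2.21 and 4.61 in 46LCNEC_cell, 2.73, 6.03 and 3.13 in 57SCLC_cell, 0, 4.25 and 0 in 57SCLC_allo and 33.6, 30.9 and 21.1 in Lung. All 3 tumors of 46LCNEC_allo lay above every sample of the other groups, which tumor 312 exceeded the most, and no 57SCLC_allo tumor had more than 3 reads. These are RNA levels only. By immunohistochemistry the authors reported the subcutaneous tumors to be negative for p63 protein, and RNA and protein were not compared here. Trp73 was high in 57SCLC and Lung and nearly absent from 46LCNEC. It had 994, 882 and 935 in 57SCLC_cell, 989, 1317 and 1106 in 57SCLC_allo and 659, 654 and 679 in Lung. Trp73 was at 0 in 2 of the 3 dishes of 46LCNEC_cell and in 2 of the 3 tumors of 46LCNEC_allo, with 3.31 in dish B and 12.2 in tumor 321. An opposite-strand gene, Trp73os, covers 5.06% of the exon length of Trp73.

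The lines were compared in culture and as allografts with limma on log2(normalized count + 1), on which folds of weakly expressed genes come out too small. The filter on low values kept genes that reached 10 normalized counts in 3 or more of the 6 samples, and p-values were adjusted over all of these by the Benjamini-Hochberg method. A call required an adjusted p not above 0.01 together with a change of 2-fold or more. In 57SCLC_cell against 46LCNEC_cell, 7 of the 10 genes passed this filter on low values. Krt7, Krt8, Krt18 and Trp73 were higher, Krt14 and Krt19 were lower, and Krt10 was tested but not called. These are 6 of 7, where 46.1% of all 16920 genes tested were called (23.9% higher and 22.2% lower). The samples of the lines did not overlap in any of the 7, as in 80.8% of all genes tested. The mean of Krt7 was 175-fold higher (log2 fold change 7.46, SE 0.19, adjusted p = 1.83e-08) and that of Krt18 was 143-fold higher (7.12, SE 0.11, adjusted p = 3.49e-09). Krt8 was at least 1875-fold higher (log2 fold change 10.72, SE 0.15, adjusted p = 3.45e-09) and Trp73 at least 333-fold higher (9.17, SE 0.54, adjusted p = 1.53e-06), both against a group at the floor. Krt19 was 213-fold lower (log2 fold change -8.01, SE 0.49, adjusted p = 1.81e-06), or 428-fold without flask C, and Krt14 at least 62.6-fold lower (-6.69, SE 0.25, adjusted p = 1.18e-07). Krt10 was 1.61-fold lower with an adjusted p of 0.00136 (limma), short of the fold required.

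As allografts the lines differed in all 8 of the genes that passed the filter. Krt7, Krt8, Krt18, Krt19 and Trp73 were higher in 57SCLC_allo than in 46LCNEC_allo and Krt10, Krt14 and Trp63 were lower, where 30.4% of all genes tested were called (16.1% higher and 14.2% lower). None of the 8 overlapped between the lines, as in 65.9% of all genes tested. Several of the folds rested on 1 tumor, since the 46LCNEC_allo means of Krt7, Krt8, Krt14 and Trp63 were mostly tumor 312. Krt7 was 711-fold higher (log2 fold change 10.04, SE 0.75, adjusted p = 7.41e-05), Krt8 was 248-fold higher (9.48, SE 1.2, adjusted p = 0.000695) and Krt18 was 130-fold higher (7.46, SE 0.74, adjusted p = 0.000234). Without tumor 312 Krt7 was 2113-fold and Krt8 at least 1635-fold higher, the other two tumors being at the floor for Krt8. Trp73 was 280-fold higher (8.90, SE 1.00, adjusted p = 0.000393), and without tumor 321, the only one above the floor, at least 319-fold. The errors were larger than in culture, since the 46LCNEC_allo tumors differed more among themselves than the dishes did. Krt19, lower in 57SCLC in culture, was 9.24-fold higher in the 57SCLC allografts (log2 fold change 3.33, SE 0.52, adjusted p = 0.00177), and 15.2-fold without tumor 312. This call was lost without tumor 275 (adjusted p = 0.0101) or tumor 317 (adjusted p = 0.0108). Trp63 was at least 46.1-fold lower (log2 fold change -6.44, SE 0.98, adjusted p = 0.00154), and at least 16.3-fold without tumor 312. Krt10 was 3.38-fold lower (-1.76, SE 0.22, adjusted p = 0.000611). Krt14 was at least 80.8-fold lower (-7.32, SE 1.11, adjusted p = 0.00155), and at least 12.5-fold without tumor 312. The call of Krt14 was lost with edgeR on the recovered reads (adjusted p = 0.0242) and with library size only (adjusted p = 0.0316). In bulk samples fewer cells of a type and less RNA per cell cannot be told apart, and tumors also hold cells of the host. With library size in place of size factors the median of all genes moved from 0.01 to 0.23 on the log2 scale in the allografts and from 0.00 to 0.19 in the cells, small beside these differences, all of which kept their direction.

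**Figure D2:**
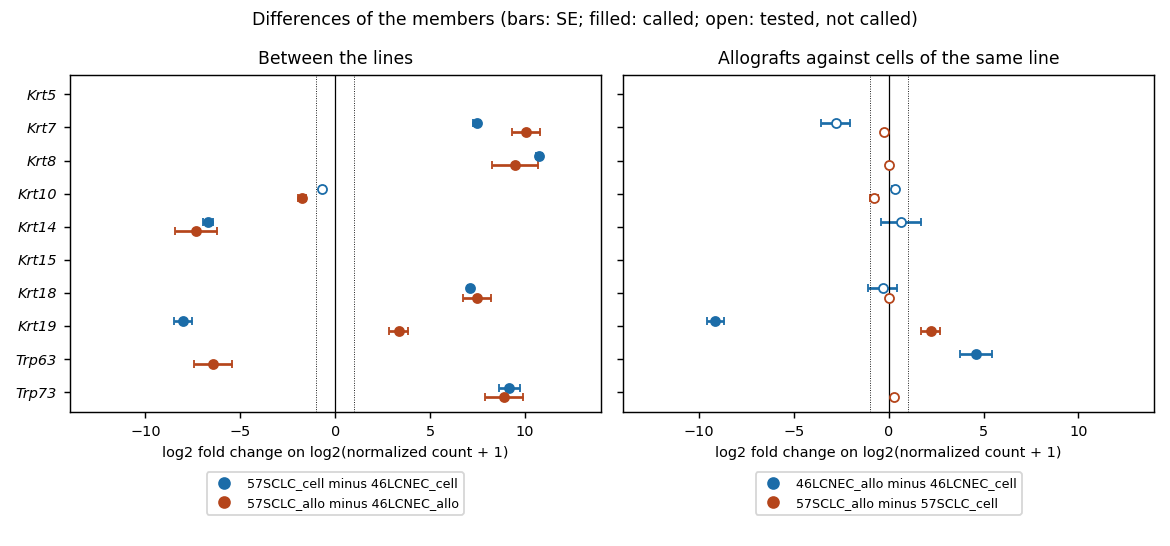
The horizontal axis gives the log2 fold change on log2(normalized count + 1) with its SE, for the lines compared in culture and as allografts (left) and for allografts against cells of each line (right); filled points were called, open points were tested and not called, and genes without a point did not pass the filter. Krt19 turned from -8.01 between the cells to 3.33 between the allografts, and it was called in both lines between allograft and cells, in opposite directions.

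Within each line, allografts were set against cells. In 46LCNEC, Trp63 was higher and Krt19 lower in the allografts, 2 of 6 genes that passed the filter, where 22.8% of all genes tested were called (14.4% higher and 8.45% lower). Krt19 was 516-fold lower (log2 fold change -9.13, SE 0.45, adjusted p = 1.24e-05), or 846-fold without tumor 312, and the call held without each sample in turn. The mean of Trp63 was 36.0-fold higher (4.61, SE 0.84, adjusted p = 0.00335). Without tumor 312 the fold of Trp63 was 12.7 (log2 fold change 3.71, adjusted p = 0.00439) and without dish A 66.9. Its call was lost without dish B (adjusted p = 0.0155) or dish C (adjusted p = 0.0171) and with library size only (adjusted p = 0.0120). Krt7 was 4.76-fold lower and was not called (-2.80, SE 0.77, adjusted p = 0.0193), but it was 14.1-fold lower and called without tumor 312 (adjusted p = 0.00124), and it was called with library size only (adjusted p = 0.00798) or all 15 samples in 1 model (adjusted p = 0.000607). It was 1 of 4 of the 6 genes whose samples did not overlap between the groups, as in 63.9% of all genes tested. Krt14 had a log2 fold change of 0.63 with an SE of 1.05, which turned to -0.74 without tumor 312. Krt8 did not pass the filter, and its only detected value was in tumor 312.

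In 57SCLC, Krt7, Krt8 and Krt18 differed little between allografts and cells. Krt8 (log2 fold change 0.01, SE 0.11) and Krt18 (0.02, SE 0.09) were within the spread of the samples, and Krt7 (-0.22, SE 0.11) and Trp73 (0.27, SE 0.12) were not called. Krt19 was the only gene called of the 6 that passed the filter, where 16.6% of all genes tested were called (14.4% higher and 2.29% lower). Krt10 and Krt19 did not overlap between the groups, as in 53.6% of all genes tested. It was 3.81-fold higher in the allografts (2.21, SE 0.50, adjusted p = 0.00909), and this call was lost with edgeR (adjusted p = 0.0242) and without any sample but flask C, without which it was 7.68-fold. The lowest adjusted p of those 5 fits was 0.0278, without flask A, and the value without flask B was 0.0298. Krt10 was 1.68-fold lower in the allografts (-0.76, SE 0.20, adjusted p = 0.0170) and was not called.

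An interaction term over the 12 cell and allograft samples tested whether the change from cells to allografts differed between the lines. It was called for 3 of the 8 genes that passed the filter, where 17.5% of all genes tested were called (10.8% higher and 6.78% lower). For Krt19 the change in 57SCLC exceeded that in 46LCNEC by 11.34 on the log2 scale (SE 0.75, adjusted p = 5.13e-07). For Trp63 the term was -6.07 (SE 1.2, adjusted p = 0.00211; 0.0101 with edgeR), and for Krt10 it was -1.08 (SE 0.24, adjusted p = 0.00401). The call of Krt10 was lost without any one of 5 samples, for example with an adjusted p of 0.0139 without flask A. Krt7 (2.58, SE 0.83, adjusted p = 0.0291), Krt8 (-1.24, SE 1.30, adjusted p = 0.486), Krt14 (-0.63, SE 1.2), Krt18 (0.34, SE 0.80) and Trp73 (-0.27, SE 1.2) were not called. Without tumor 312 the term of Krt7 was called (3.48, adjusted p = 5.11e-05).

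Against normal lung, both 46LCNEC groups had less Krt7, Krt8 and Krt18. In 46LCNEC_cell, Krt7, Krt8, Krt18, Trp63 and Trp73 were lower and Krt14 was higher, 6 of 8 genes that passed the filter, where 55.6% of all genes tested were called (20.6% higher and 35% lower). None of the 8 overlapped with Lung, as in 86% of all genes tested. Krt7 was 86.7-fold lower (log2 fold change -6.45, SE 0.19, adjusted p = 4.44e-09), Krt18 was 35.2-fold lower (-5.10, SE 0.14) and Krt8 at least 408-fold lower. Trp63 was 4.50-fold lower (-2.23, SE 0.49, adjusted p = 0.00231), a call lost without CT3 (adjusted p = 0.0150) or CT4 (adjusted p = 0.0129), and it was 8.37-fold lower without dish A. Krt14 was 27.4-fold higher (4.73, SE 0.52, adjusted p = 2.22e-05), and at least 39.95-fold without CT5, the only lung above the floor. Krt19, at 1.24 times the level of Lung, was not called (0.32, SE 0.11, adjusted p = 0.0269). In 46LCNEC_allo, Krt7, Krt8, Krt18, Krt19 and Trp73 were lower and Krt14 was higher, 6 of 8, where 35.6% of all genes tested were called (13.4% higher and 22.1% lower). None of the 8 overlapped with Lung, as in 71.2% of all genes tested. Krt19 was 416-fold lower (-8.81, SE 0.48, adjusted p = 2.29e-05), or 683-fold without tumor 312. Trp63 was 7.99-fold higher by its means, or 2.82-fold without tumor 312, and was not called (2.38, SE 0.75, adjusted p = 0.0306), though DESeq2 called it (adjusted p = 0.000246). The call of Krt14 (5.36, SE 1.23, adjusted p = 0.00862) was lost without tumor 319 or without any of the lungs, with an adjusted p between 0.0122 and 0.0366, and that of Krt8 (-7.27, SE 1.23, adjusted p = 0.00231) was lost without any of the lungs, the highest being 0.0125.

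57SCLC had more of the simple pair than normal lung. In 57SCLC_cell, Krt7, Krt8 and Krt18 were higher and Krt19 and Trp63 were lower, 5 of 7 genes that passed the filter, where 53.8% of all genes tested were called (21.1% higher and 32.7% lower). None of the 7 overlapped with Lung, as in 83.4% of all genes tested. Krt8 was 4.60-fold higher (2.20, SE 0.11, adjusted p = 6.90e-07) and Krt18 was 4.05-fold higher (2.02, SE 0.11, adjusted p = 1.31e-06). With all 15 samples in 1 model the call of Krt8 was lost (adjusted p = 0.0287), as was that of Krt7 (adjusted p = 0.104). Krt7 passed the fold narrowly (1.02, SE 0.12, adjusted p = 0.000134), and without flask A, flask B or CT3 its log2 fold change was 0.99, 0.97 or 0.92. In 57SCLC_allo, Krt8 (2.21, SE 0.11) and Krt18 (2.03, SE 0.10) were higher and Krt10, Krt19 and Trp63 were lower, 5 of 7, where 45.8% of all genes tested were called (18.9% higher and 26.9% lower). Krt19 was 45.0-fold lower (-5.48, SE 0.13, adjusted p = 5.83e-08) and Trp63 at least 5.77-fold lower (-4.06, SE 0.68, adjusted p = 0.000849). With library size only, Trp63 lost its call against Lung in 57SCLC_allo (-0.96), 57SCLC_cell (-0.81) and 46LCNEC_cell (-0.75), and Krt10 in 57SCLC_allo (-0.87). The call of Krt8 in 57SCLC_allo was lost with all 15 samples in 1 model (adjusted p = 0.0305). Krt7 was 1.72-fold and Trp73 1.71-fold higher in 57SCLC_allo, short of the fold required. None of the 7 overlapped with Lung, as in 78.6% of all genes tested. The comparisons with Lung share the same 3 lungs and are not independent of each other.

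Since type I and type II chains pair, the sums of each type were compared per kb of exon over all keratins of the matrix, 27 type I and 26 type II genes. By exon length, 57SCLC held similar sums of both types, with 4295 ± 401 type I and 5569 ± 398 type II normalized counts per kb in the cells and 4374 ± 144 and 5105 ± 391 in the allografts (SD, n = 3). The ratio of type I to type II was 0.774, 0.786 and 0.751 in 57SCLC_cell, 0.862, 0.820 and 0.894 in 57SCLC_allo and 2.12, 2.19 and 2.16 in Lung. In 46LCNEC_cell type I stood at 4155 ± 295 but type II at only 40.3 ± 6.04, a ratio of 99.2, 128 and 87.7 in the 3 dishes. The dishes of 46LCNEC thus held about as much type I keratin RNA per length as 57SCLC or Lung and almost no type II. In 46LCNEC_allo both types were low, at 412 ± 319 and 27.7 ± 28.0, with ratios of 13.1, 27.6 and 15.6. The ratios are given as a description with no test, and an exact permutation test of 3 samples against 3 could not go below p = 0.10. The ratio rests on lengths. In 57SCLC_cell it was 0.583 with canonical transcript lengths and 0.264 with the counts not divided by length, and in 57SCLC_allo 0.661 and 0.307. In Lung it was 0.749 without length, on the other side of 1, and it stayed over 1 in both 46LCNEC groups and under 1 in both 57SCLC groups under each of the 3 other ways of computing it.

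**Figure D3:**
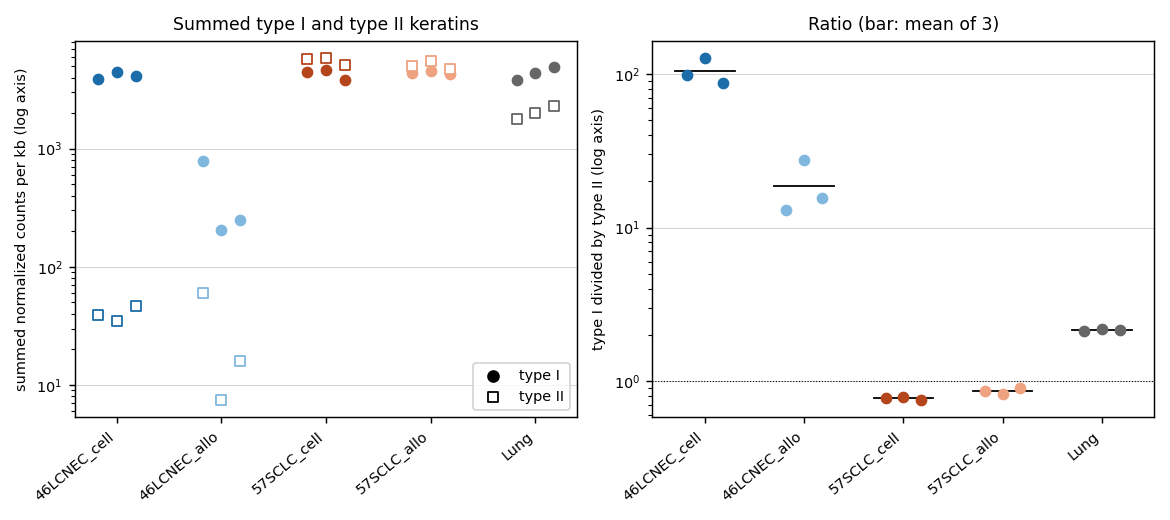
The left panel gives the summed normalized counts per kb of all type I (filled circles) and all type II keratins (open squares) for each sample on a log axis, and the right panel their ratio on a log axis with the mean of 3 as a bar. The mean of type I lay between 4155 and 4374 per kb in 4 of the 5 groups, and the ratio ran from 0.770 in 57SCLC_cell to 105 in 46LCNEC_cell.

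The chains that made up these sums differed. Krt19 was 89.5% ± 0.391 of the type I sum in 46LCNEC_cell and 68.7% ± 2.06 in Lung, whereas Krt18 was 97.8% ± 0.437 in 57SCLC_cell and 96.8% ± 0.114 in 57SCLC_allo (SD, n = 3). Of type II in 57SCLC_cell, Krt8 was 48.3% ± 1.40 and Krt7 44.5% ± 0.505, and in Lung Krt7 led with 60.8% ± 1.46 before Krt8 with 29.0% ± 1.51. In 46LCNEC_allo the leading type I chain varied between tumors, with Krt14 at 10.9% to 73.6% and Krt10 at 19.0% to 73.0%. Of the low type II sum there, Krt88 held 24.0% to 61.0% and Krt8 3.53% to 52.1%. The ratio of Krt8 to Krt18 per kb was 0.641 ± 0.00354 in 57SCLC_cell, 0.638 ± 0.0390 in 57SCLC_allo and 0.566 ± 0.0429 in Lung. In 46LCNEC Krt8 was at the floor in every sample but tumor 312, whose ratio was 0.785, and the ratios of the other samples are not given. The 8 keratins among the 10 genes held most of all keratin counts, from 88.7% to 96.8% in 46LCNEC_allo and from 97.8% to 98.1% in 57SCLC_allo.

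Of the 54 keratin genes in the matrix, 32 had more than 3 reads in at least 1 sample, and 8 beyond these 10 genes reached a mean of 50 normalized counts in a group. Krt13, a type I keratin of mucosal epithelia, had 231 ± 39.3 in 46LCNEC_cell, and Krt20, the type I keratin of intestinal epithelium, had 59.7 ± 13.3. Both were at the floor in all 46LCNEC_allo tumors and in both 57SCLC groups. Krt4, the type II partner of Krt13, was absent from 46LCNEC_cell and had 199 ± 103 in 57SCLC_cell, where flask C had 318, and 42.2 ± 29.9 in 57SCLC_allo. Krt87, a type II keratin of hair, had 525 ± 75.9 in 57SCLC_cell and 292 ± 27.8 in 57SCLC_allo, and Krt88 had 78.9 ± 10.1 and 120.2 ± 17.4. Krt23 (659 ± 89.3), Krt79 (743 ± 150.4) and Krt222 (61.1 ± 17.5) were highest in Lung.

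Other gene groups were read in the same fits, with lists made with earlier results of these data known. Of 14 regulators of keratin and epithelial genes, 11 were tested between the lines. Elf3 and Zfp750 were listed at 0 in all 15 samples, which was not read as absence. In the cells 8 of the 11 were higher in 57SCLC and 2 lower, where 23.9% of all genes tested were higher and 22.2% lower, with a median log2 fold change of 5.88 against 0.00 over all genes tested, and in the allografts 9 were higher and 2 lower of 11, where 16.1% of all genes were higher and 14.2% lower, with a median of 7.13 against 0.01. Esrp1, an epithelial splicing regulator, had 9737 to 10043 normalized counts in 57SCLC_cell and 7512 to 9182 in 57SCLC_allo, against at most 3.31 in any 46LCNEC sample. Its relative Esrp2 had 38.6 to 54.6 in 46LCNEC_cell and 2239 to 2840 in 57SCLC_cell. Grhl2, a factor that keeps junction genes on, rose by 6.55 on the log2 scale in the cells (SE 0.13, adjusted p = 7.09e-09), and Ehf, an epithelial ETS factor, by 8.55 (SE 0.19, adjusted p = 1.05e-08). Klf4 was among the 2 that were lower in 57SCLC_cell (-2.97, SE 0.13, adjusted p = 2.55e-07), and Klf5 was not called there (0.54, SE 0.10).

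Proteins that tie keratin filaments to junctions or to other filaments also differed. Of 11 such genes, 6 were higher and 1 lower in 57SCLC_cell, and 7 were higher and 2 lower in 57SCLC_allo. Over all genes tested 23.9% were higher and 22.2% lower in the cells and 16.1% and 14.2% in the allografts. The medians of the 11 were 1.19 and 3.88, against 0.00 and 0.01 over all genes. Dsp, which encodes desmoplakin, the anchor of keratins at desmosomes, had 31802, 33248 and 23711 normalized counts in 57SCLC_cell and 46.9, 33.1 and 49.2 in 46LCNEC_cell. In 46LCNEC_allo Dsp had 375 in tumor 312, 7.37 in tumor 319 and 8.85 in tumor 321, the same tumor being high as for Krt8, Krt14 and Trp63. Plec, whose product plectin links several filament types, went the other way, with 70323 to 73078 in 46LCNEC_cell and 6294 to 9068 in 57SCLC_cell. Ppl, which encodes periplakin, had 3138 to 3804 in 46LCNEC_cell and 41.0 to 646 in 46LCNEC_allo (log2 fold change -4.32, SE 0.85, adjusted p = 0.00473).

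Other cytoplasmic intermediate filaments were split between the lines. Of 12 genes 9 were tested in the cells, and 5 were higher and 3 lower in 57SCLC_cell, where 23.9% of all genes tested were higher and 22.2% lower. Vim, encoding vimentin of mesenchymal cells, had 101345 to 118251 normalized counts in 46LCNEC_cell and 10.4 to 18.8 in 57SCLC_cell (log2 fold change -12.73, SE 0.19, adjusted p = 3.49e-09). Nes, encoding nestin, was lower too (-5.09, SE 0.07). The neuronal filaments Ina and Nefh were higher in 57SCLC_cell by 8.48 (SE 0.24) and 9.03 (SE 0.22) on the log2 scale. In 57SCLC_allo Vim had 6043 to 11102, and the 5 fibroblast markers summed to 30593 to 48039 there against 22.4 to 27.8 in 57SCLC_cell.

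**Figure D4:**
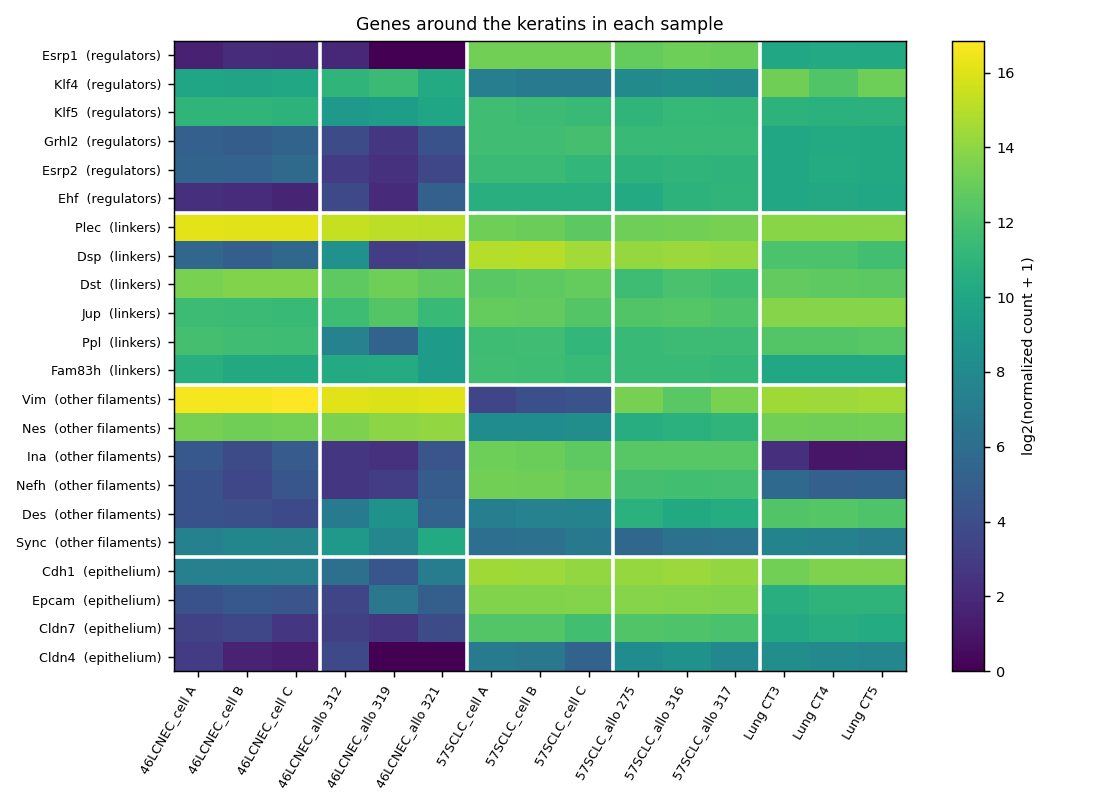
Each row is a gene and each column 1 of the 15 samples, colored by log2(normalized count + 1), for regulators of keratin genes, linkers of keratin filaments, other intermediate filaments and general epithelial genes. Esrp1, Grhl2, Esrp2, Ehf, Dsp and Cdh1 were high in 57SCLC and Lung and low in 46LCNEC, and Vim was lowest in 57SCLC_cell.

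The partners and targets of p63 in basal epithelium were called in both directions. Between 46LCNEC_allo and 46LCNEC_cell, where Trp63 was called higher, 3 of the 18 genes tested of 22 were higher and 5 lower, with a median of -0.46 against 0.00 over all genes tested. Over all genes 14.4% were higher and 8.45% lower. The share of higher calls in the list was thus near that of all genes, and the share of lower calls was above it. Igfbp3, a secreted binding protein of insulin-like growth factors, was among the 3 (5.71, SE 0.21, adjusted p = 5.78e-06), with 22299 to 38330 normalized counts in 46LCNEC_allo and 503 to 657 in the dishes. It also had 6999 to 9671 in 57SCLC_allo, where Trp63 was not detected, and 16.9 to 28.1 in 57SCLC_cell. Itga3, an integrin of the basement membrane, was lower in 46LCNEC_allo (-2.90, SE 0.15, adjusted p = 1.59e-05). Dst, Itga6, Jag2 and Cdkn1a were not called in this comparison. Sox2 was listed at 0 in all 15 samples, which was not read as absence. Between the lines, 5 of 18 tested were higher and 11 lower in 57SCLC_cell, where the shares of all genes were 23.9% and 22.2%. In 57SCLC_allo 4 of 18 were higher and 7 lower, where they were 16.1% and 14.2%. In both comparisons the share of higher calls was near that of all genes, and the share of lower calls was above it.

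Markers of other cell types were read beside the values of 46LCNEC_allo, since Krt14, Trp63 and Krt8 were highest in tumor 312. The 11 epidermal markers summed to 13.3 to 17.2 normalized counts in the 3 tumors and 2 of them had more than 3 reads in a tumor. Krt1 was at 0 in all 3. Krt2, Flg, Flg2 and Sbsn were listed at 0 in all 15 samples, so they could not be read for or against skin. The 7 airway basal markers summed to 171 to 1654 in the 3 tumors, and 4 of them had more than 3 reads in a tumor. Krt14 and Trp63 belong to this list and were highest in tumor 312. Krt5 was at 0 in all 3 tumors, and Krt15 and Krt17 were not detected. Ngfr had 29.1, 12.6 and 49.8 in tumors 312, 319 and 321, so it was not highest in tumor 312. Adipoq had 103 in tumor 312 and 0 in the other two, and the part of fat or other host tissue in the values of tumor 312 was not tested. The 5 fibroblast markers summed to 297715 to 666389 in 46LCNEC_allo and to 67855 to 78009 in 46LCNEC_cell. The 5 mesothelial markers, which include Krt19, summed to 10525 to 11668 in 46LCNEC_cell, 117 to 1528 in 46LCNEC_allo and 6039 to 8860.3 in Lung. Krt19 alone had 6425 to 7443 in the dishes, so much of the change in this sum was Krt19 itself. Of the 3 markers tested between allografts and cells of 46LCNEC, 1 was called lower, and this was Krt19. Msln, encoding mesothelin, had 4071 to 4425 in 46LCNEC_cell, where Upk3b, another mesothelial marker, had at most 2.21. In tumors 312, 319 and 321 Msln had 842, 22.1 and 1450.3, below every dish. The part of mesothelial cells in the values of Krt19 was not tested.

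Genes whose pattern was most like a member were ranked by Pearson's r over the 15 samples among 19626 genes, as a description only, since the 15 samples form 5 groups of 3 that share line and tissue. Nlrp4e (0.995), Tmem184a (0.993) and Tnk1 (0.991) ranked first for Krt8, and Gm5200 (0.996), Nrxn2 (0.993) and Zfp105 (0.993) for Krt18. Krt18 itself ranked 74 for Krt8, with 0.966. For Krt14 the first were 4930461G14Rik (0.975), Arf1 (0.967) and Tmem185a (0.963), and for Trp63 they were Natd1 (0.934), Gm48898 (0.933) and Gdf7 (0.929). Krt14 ranked 1479 for Trp63, with 0.632. Krt5 did not pass the filter and was not ranked.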

How the data were processed

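RNA of 15 samples in 5 groups of 3 was sequenced after poly-A selection as read pairs. Alignment by the authors used Rbowtie2 and the mouse build GRCm39. Gene counts came from featureCounts with the annotation GENCODE M27, and DESeq2 size factors were divided out, so the deposited values are signal values (normalized counts). Versions, strand setting and the handling of reads with several alignments were not given in the sources used here. Counts of overlapping or duplicated genes are therefore uncertain. All values above 0 (100%) were multiples of the smallest value of their sample within 0.01 reads, which recovered the reads counted, from 9480244 to 44876572 per sample. With fewer reads the floor of 3 reads stands higher, and floors cover counting error only.

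Groups were taken from the labels. Each comparison used limma 3.58.1 (R 4.3.3) with a mean-variance trend on log2(normalized count + 1) of the 6 samples compared. Genes had to reach 10 normalized counts in 3 or more samples, and p-values were adjusted over all of them by the Benjamini-Hochberg method. Calls needed an adjusted p not above 0.01 and a change of 2-fold or more. The interaction term used 12 samples. The procedures were tested on simulated data. Alternatives were edgeR 4.0.16 and DESeq2 1.42.0 on the recovered reads, TMM and library size, other pseudocounts (0.1 and 5), no filter, other thresholds, all 15 samples in 1 model, each sample left out in turn and the letters of the cultures as a block. Exon lengths came from GENCODE release M39 of the same build, in which 98.9% of the identifiers were found, and promoter sequences from RefSeq on GRCm38.p6. Python 3.11.15, pandas 2.3.3 and matplotlib 3.10.9 were used for summaries and figures.

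The 10 genes and the lists were chosen with earlier results of these data known. Named are the 10 genes, other keratins with a mean of at least 50 normalized counts in a group, at most 6 genes per list by mean level, the 3 genes most like Krt5, Krt14, Krt8, Krt18 and Trp63, and the genes deleted in the mice. Lists cover regulators, linkers, p63 partners and targets, other filaments and markers of cell types, and the lists not named in the results are summed in the closing section. Results for some engineered genes are not reported here.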

Additional observations from a re-analysis of the deposited data

Results flagged for a closer look

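The change from cells to allografts differed between the lines for 3 genes by the limma interaction term over 12 samples. For Krt19 the term was 11.34 on the log2 scale: in 46LCNEC the mean went from 6902 normalized counts in the cells to 13.4 in the allografts, and in 57SCLC from 32.5 to 124. For Trp63 the term was -6.07, with means of 6.34 and 228 in 46LCNEC and of 3.96 and 1.42 in 57SCLC, the last with no tumor above 3 reads. For Krt10 the term was -1.08, with means of 257 and 321 in 46LCNEC and of 160 and 95.0 in 57SCLC. Tumor 312 held most of the Trp63 of its group, and without it the term was -5.17 (adjusted p = 0.00295, limma).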

How the results depend on the processing

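For the 65 results on single genes, 1091 alternatives were computed, and 1006 kept direction and call, 55 lost the call, 8 gained it and 22 changed direction; causes were not tested. The number of the 10 genes called was 3 instead of 5 for 57SCLC_allo against Lung with library size only and for 57SCLC_cell against Lung with all 15 samples in 1 model. For 46LCNEC_allo against 46LCNEC_cell it was 1 instead of 2 when the test was against a 2-fold change, and 1 to 3 with each sample left out. For 57SCLC_allo against 57SCLC_cell it was 0 instead of 1 with TMM, edgeR, no filter, a pseudocount of 0.1 or a test against a 2-fold change, and 0 to 1 with each sample left out; edgeR and TMM gave Krt19 adjusted p-values of 0.0242 and 0.0102.

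With only the 8 keratins among the 10 genes the ratio of type I to type II was 269 (cells) and 86.6 (allografts) for 46LCNEC, 0.830 and 0.902 for 57SCLC, and 2.27 for Lung. The 86.6 is uncertain, since type II was only 1.67 and 1.98 per kb in tumors 319 and 321. Without division by length it was 53.2 in 46LCNEC_cell, 0.264 in 57SCLC_cell, 0.307 in 57SCLC_allo and 0.749 in Lung. With canonical transcript lengths, added after the data were seen, it was 0.583, 0.661 and 1.57 in 57SCLC_cell, 57SCLC_allo and Lung.

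Changes of direction concerned genes that were not called. In 46LCNEC_allo against 46LCNEC_cell, Krt18 was 0.15 with edgeR and 0.15 with DESeq2, and ranged from -0.89 to 0.62 with each sample left out, and Krt14 from -0.74 to 1.44. In 57SCLC_allo against 57SCLC_cell, Krt8 was -0.016 with library size only and -0.034 with TMM, and ranged from -0.076 to 0.080 with each sample left out, and Krt18 was -0.0076 and -0.026, and ranged from -0.065 to 0.072. For the interaction term, Krt18 was -0.10 with edgeR and -0.16 with DESeq2 and Trp73 was 0.12 with library size only. With each sample left out it ranged from -2.14 to 0.30 for Krt8, -1.44 to 0.74 for Krt14, -0.60 to 0.91 for Krt18 and -0.97 to 0.97 for Trp73.

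Krt14 in 46LCNEC_allo against Lung was not called with edgeR (adjusted p = 0.0101), a pseudocount of 5 (adjusted p = 0.0124) or library size only (2.70, adjusted p = 0.0393), and DESeq2 gave it no adjusted p in 4 comparisons. With library size only, where the pseudocount weighs more on low genes, Trp63 lost its call against Lung in both 57SCLC groups and in 46LCNEC_cell, with a log2 fold change of -0.96 in 57SCLC_allo. The share of higher calls between the allografts moved from 53.1% to 64.4% with it. The letters of the cultures did not pair the samples, since the deviations of same-lettered cultures correlated by 0.0916, -0.0837 and -0.00619. With the letters as a replicate block 6 genes were called between the cells, as without it, and no paired analysis was possible for the other comparisons because their samples share no numbers. Depth limits genes near 3 reads, among them Krt5, Krt8 and Trp73 in 46LCNEC and Trp63 in 57SCLC_allo.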

Other observations

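Markers of further cell types were summed per sample as normalized counts. The 5 alveolar type 1 markers reached 114354 to 136199 in Lung and 1173 to 3529 in the other groups, and the 3 club cell markers 193113 to 271210.0 and at most 36.5. The 4 ciliated cell markers reached 16860 to 22864 in Lung, 495 to 626 in 57SCLC_cell and 76.2 to 101 in 46LCNEC_cell. The 3 endothelial markers summed to 4660 to 7993 in 46LCNEC_allo and 2293 to 3224 in 57SCLC_allo, and the 3 leukocyte markers to 2364 to 4414 and 1471 to 2274. Padi3, a hair follicle enzyme, made up most of the 1087 to 1398 of the hair follicle and sebaceous list in 57SCLC_allo. Krt17 had 38.3, 43.9 and 51.1 in the 3 tumors of 57SCLC_allo and was at the floor in all 3 flasks of 57SCLC_cell, with at most 1.56. Of the 7 airway basal markers, whose sum reached 993 to 1445 in 46LCNEC_cell, Dlk2 alone had 875 to 1289. The 4 fat and muscle markers summed to 2.21 to 195 in 46LCNEC_allo and 39.8 to 1114 in Lung.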
